A study of Mus musculus with 6 samples.

Results

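The 7 CDK inhibitor genes of the CIP/KIP and INK4 families and the 3 pocket protein genes were compared between sorted cells labelled as satellite cells of pharyngeal and limb muscle. Members were taken by gene symbol: every probe of the array that the platform annotation assigns to Cdkn1a, Cdkn1b, Cdkn1c, Cdkn2a, Cdkn2b, Cdkn2c, Cdkn2d, Rb1, Rbl1 or Rbl2. This gave 22 of 45281 probes and 10 of 19057 named genes. The rule uses no measured value. Of these, 16 probes of 9 genes were above background on enough arrays to be tested. The 6 others were the 3 probes of Cdkn2a and 1 probe each of Cdkn1a, Rbl1 and Rbl2.

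Satellite cells are the myogenic stem cells that lie along muscle fibres. The 3 pharyngeal pools (pools 1 to 3) are labelled as myogenic cells of pharyngeal muscle, and the 3 limb pools as those of gastrocnemius and quadriceps. Both groups came from male C57BL/6 mice aged 8 to 10 weeks, and the labels name no treatment, transgene or deleted allele. Each pool joined 150000 to 200000 cells from 10 to 30 mice, sorted by FACS. The sources used here do not give the sorting markers, so a value is an average over animals and over whatever cells passed the gate. Amplified RNA was hybridised to Illumina MouseWG-6 v2.0 arrays, 1 array per pool. All arrays lay on 1 chip, with the pharyngeal pools at the first positions, so chip position and group cannot be told apart.

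CDK inhibitors bind cyclin-dependent kinases or their cyclin complexes and slow the passage from G1 into DNA synthesis. The INK4 proteins (p15, p16, p18 and p19 INK4d, from Cdkn2b, Cdkn2a, Cdkn2c and Cdkn2d) bind CDK4 and CDK6, whereas the CIP/KIP proteins (p21, p27 and p57, from Cdkn1a, Cdkn1b and Cdkn1c) bind a wider range of cyclin-CDK complexes. Their shared downstream targets are the pocket proteins pRb, p107 and p130 (Rb1, Rbl1 and Rbl2), which hold E2F factors in check until CDKs phosphorylate them. In mouse muscle, p21 and p57 act together in the exit from the cell cycle at differentiation, p27 marks slowly dividing satellite cells, and p16 is kept silent in young satellite cells and rises in very old ones.

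The groups are set against the following marker levels. Differences are log2 values, pharyngeal less limb, unless given as folds. Of 12 tested satellite cell markers 6 fell in the pharyngeal pools, led by Chodl, Cdh15, Calcr and Myf5, with differences of -1.98, -2.29, -2.43 and -1.89 (limma, adjusted p = 0.0045, 0.00799, 0.0098 and 0.0133). Pax7, which defines the cell type, was above background on all 6 arrays and was among those that fell (-2.27, adjusted p = 0.0144). Of 13 tested epithelial markers 8 rose, led by Krt14 (difference 5.52), Krt5 (5.06), Krt13 (4.84, as a bound at least 21.9-fold) and Krt8 (2.05). Of those that rose, Krt13, Krt15 and Krt4 were above background on 0 limb arrays and Krt5, Krt8 and Esrp1 on 1, so their limb levels are mostly background levels. These genes could pass the filter only with the pharyngeal arrays, which limits what the count of 8 can tell. Krt14 and Cdh1, which also rose, were above background on all 3 limb arrays. The markers' summed linear level was 2877 to 9847 in pharyngeal and 452 to 610 in limb pools. On the limb arrays Epcam, Krt13, Krt15, Krt4 and Cldn4 were at background. Of 5 thyroid and parathyroid markers with a probe, Tg, Pth and Chga were tested, each above background on all pharyngeal and on no limb array, and were at least 57.0-, 5.65- and 9.40-fold higher. They could pass the filter only through the pharyngeal arrays. With any 1 limb pool left out, Pth and Chga did not pass (adjusted p = 0.0604 to 0.0671 and 0.124 to 0.138), and Chga passed in 6 of 11 processing settings. Tshr and Pax8 were not tested. Of the tenocyte markers, 3 of 5 fell (Fmod -3.32, Kera -3.51, Thbs4 -1.94). Of the endothelial, fibroblast, macrophage and pericyte markers none passed. The smallest adjusted p were those of Vwf (difference -1.12, adjusted p = 0.0895) and Tek (-1.76, 0.0920), Dcn (-0.45, 0.294) and Col1a1 (-0.87, 0.320), Lyz2 (1.82, 0.0887) and Tyrobp (0.36, 0.720), and Rgs5 (0.43, 0.226) and Cspg4 (-0.31, 0.380). The epithelial, thyroid and parathyroid markers above background in the pharyngeal pools are markers of other cell types than the labelled one. The label of myogenic cells therefore need not cover all the RNA measured. A difference in a pool can come from fewer or more cells of a type or from less or more RNA per cell, and these cannot be told apart here. What part these markers have in the member values was not tested.

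None of the 9 tested members differed between pharyngeal and limb pools after adjustment over all genes (limma, Benjamini-Hochberg), against 3.32% of the 11262 genes tested. Differences are again log2 values, pharyngeal less limb. As processed here, the largest were 0.90 for Rbl1, whose probe was mostly at background in limb pools, -0.70 for Cdkn1c, -0.61 for Cdkn2c and 0.59 for Cdkn1a, each with an unadjusted p under 0.05; of all genes 20.3% had such a p. The groups did not overlap for Cdkn1a, higher in every pharyngeal pool, or for Cdkn1c and Cdkn2c, lower in every pharyngeal pool. These are 3 of 9 members, where 26.7% of all genes did not overlap, 11.7% on the higher side and 15.0% on the lower. The median difference of the 9 members was 0.035, and that of all genes was -0.056. The median absolute difference was 0.29 for members and 0.31 for all genes, so the members as a set lay near the background.

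**Figure D1:**
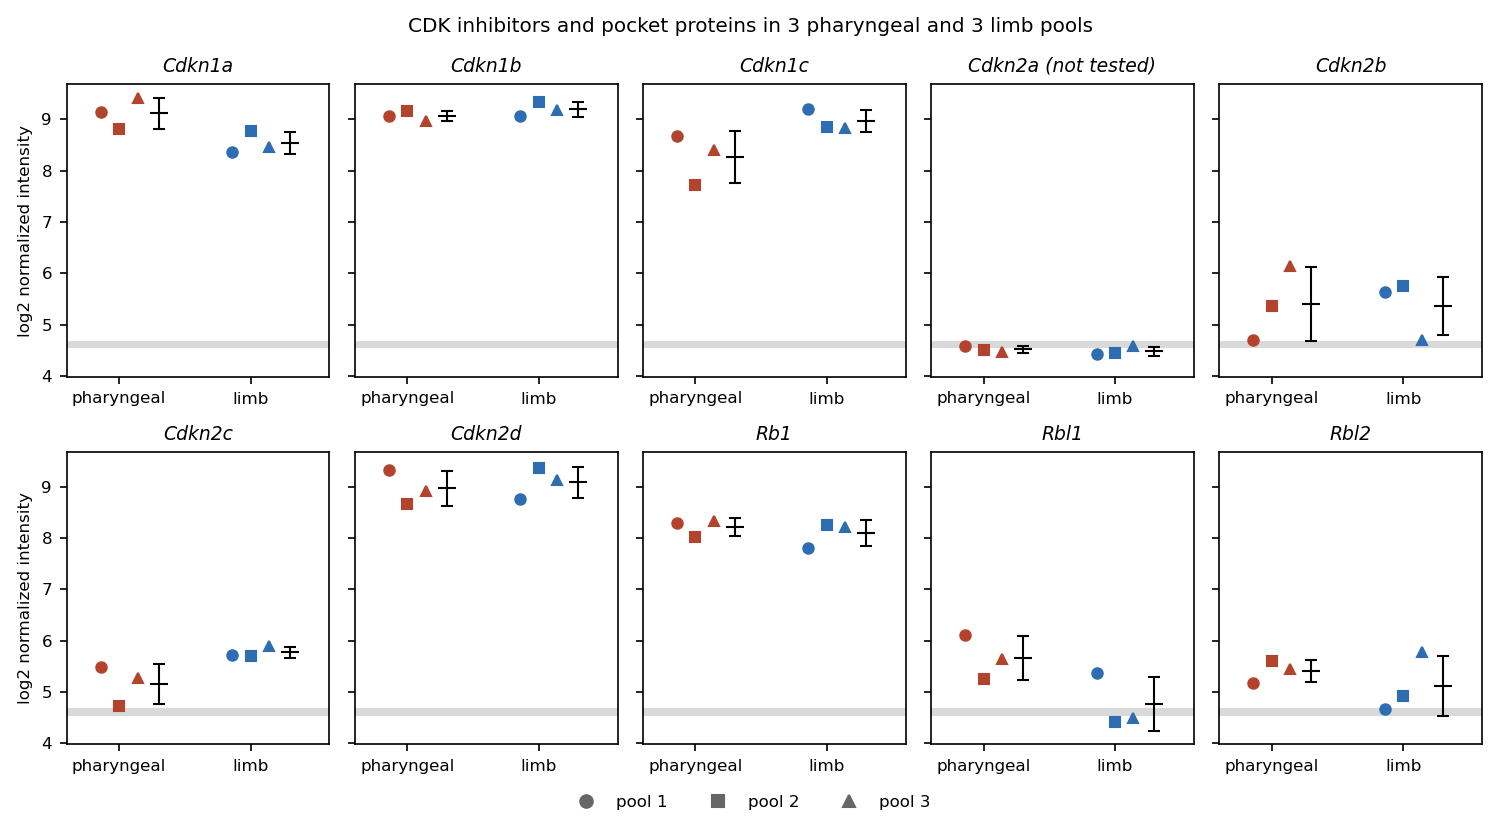
Log2 normalized intensity of each member's tested probe in the 3 pharyngeal (red) and 3 limb (blue) pools; symbols mark the pool number, the bar beside them is the mean with SD (n = 3), and the grey band spans the lowest value above background on the 6 arrays. For Cdkn2a, which was not tested, the brightest probe is drawn. Cdkn1a lies higher and Cdkn1c and Cdkn2c lower in every pharyngeal pool, and Cdkn2a lies in or below the grey band.

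Cdkn1a encodes p21, the CIP/KIP inhibitor that p53 and stress signals induce. Its tested probe (ILMN_2634083) had unnormalized intensities of 709, 574 and 723 in pharyngeal pools 1 to 3 and of 343, 529 and 414 in limb pools 1 to 3. Every pharyngeal value lay above every limb value, although pharyngeal pool 2 and limb pool 2 were close. On the log2 scale the means were 9.12 ± 0.30 and 8.53 ± 0.22 (SD, n = 3), a difference of 0.59 or 1.50-fold (SE 0.23, 95% interval 0.044 to 1.13, limma adjusted p = 0.217).

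A second Cdkn1a probe (ILMN_2846775), annotated to the same transcript, separated the groups more widely. It read 659, 705 and 732 in the pharyngeal and 272, 437 and 397 in the limb pools, and its highest limb value was far below its lowest pharyngeal value. When each of the 22633 probes above background was tested alone, of which 2.51% passed, this probe differed by 0.95 or 1.93-fold (SE 0.23, interval 0.40 to 1.49, adjusted p = 0.0857). It was higher in all 17 other settings run, by 0.77 to 1.08, and passed in 3 of them (adjusted p = 0.0437 without background correction and with the processed table, 0.0303 with a variance trend and robust fitting together). No other member probe passed in any setting. The last probe (ILMN_2846776) was above background on 2 arrays, pharyngeal pool 3 and limb pool 2, and was not tested. The epithelial markers, which rose on the same arrays, had mean log2 levels of 6.87, 7.18 and 8.64 in pharyngeal pools 1 to 3 and of 4.68 to 4.81 in limb pools. Their part in the Cdkn1a values was not tested.

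Cdkn1a has 2 annotated starts in RefSeq. The 120 bases before each are shown because both tested p21 probes separated the groups and the GC box GGGCGG lies before 1 of its starts only, the downstream one (5′ to 3′, GRCm38.p6, plus strand, chr17:29090859-29090978 and chr17:29093649-29093768).
Cdkn1a upstream start: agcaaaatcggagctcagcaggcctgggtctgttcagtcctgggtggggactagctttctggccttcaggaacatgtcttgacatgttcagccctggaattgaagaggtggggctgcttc
Cdkn1a downstream start: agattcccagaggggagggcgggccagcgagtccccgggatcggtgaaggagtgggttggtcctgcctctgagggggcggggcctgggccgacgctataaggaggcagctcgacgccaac
The array does not tell which start was used, since its probes are annotated to 1 transcript only.

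Cdkn1b encodes p27, the inhibitor most tied to quiescence. Its tested probe (ILMN_2638428) read 676, 703 and 548 in the pharyngeal and 519, 755 and 634 in the limb pools. In these unnormalized values the pharyngeal range lay within the limb range. On the log2 scale limb pools 2 and 3 (9.34 and 9.18) lay above every pharyngeal value (highest 9.17), and the groups overlapped through limb pool 1 (9.05). The log2 means were 9.06 ± 0.10 and 9.19 ± 0.14 (SD, n = 3), a difference of -0.13 (SE 0.19, adjusted p = 0.753). The 95% interval ran from -0.56 to 0.31, which leaves room for a change of either sign smaller than these bounds. Both other probes, also above background on all 6 arrays, gave -0.16 and -0.12. Cdkn1b is the only member with 3 probes that all read above background on every array.

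Cdkn1c encodes p57, an imprinted gene expressed from the maternal allele. Its only probe (ILMN_2708203) read 541, 315 and 400 in the pharyngeal and 573, 551 and 514 in the limb pools. Limb pools lay close together, and pharyngeal pool 2 stood lowest. The log2 means were 8.26 ± 0.50 and 8.96 ± 0.21 (SD, n = 3), a difference of -0.70 or 1.62-fold lower in pharyngeal pools (SE 0.29, interval -1.36 to -0.031, adjusted p = 0.228). The value was -0.43 without pharyngeal pool 2 and -0.91 without pharyngeal pool 1. By the probe that stands for each gene, pharyngeal pool 2 was also the lowest of the 3 pharyngeal pools for Cdkn1a, Cdkn2c, Cdkn2d, Rb1 and Rbl1. By these probes it was lowest for 6 of 9 members and for 32.2% of all genes. Other tested probes differed in part: those of Cdkn1a (ILMN_2846775) and Rb1 (ILMN_2679619) were lowest in pharyngeal pool 1. For Cdkn2c, ILMN_2420939 was lowest in pool 1 and ILMN_1215651 highest in pool 2. The other tested Rbl1 probe (ILMN_2688306) was lowest in pool 2.

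Of the INK4 genes, Cdkn2a had no probe above background in any pharyngeal pool and 1 in limb pool 3 only. The gene yields p16 INK4a and, from a start farther upstream and in another reading frame, p19 ARF, which stabilises p53. The probe annotated to the p16 transcript (ILMN_1227342) read 106, 97.7 and 98.8 in the pharyngeal and 92.2, 95.7 and 97.0 in the limb pools, with detection p-values between 0.0577 and 0.189. The detection p-value gives how many of the negative controls outshine a probe, as a share, and under 0.05 counts as above background. The 2 probes annotated to the ARF transcript had detection p-values of 0.181 to 0.891, except for a value of 0.0321 for ILMN_1221177 in limb pool 3. At this signal over background no difference in Cdkn2a was detectable. The annotation does not say whether the ARF probes lie in exons that both transcripts share.

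The 120 bases before the 2 annotated Cdkn2a starts are shown because the probes name transcripts of different starts, and those before the Rbl1 start because p107 is a known E2F target (5′ to 3′, GRCm38.p6, minus strand, chr4:89282193-89282312, chr4:89294620-89294739 and chr2:157204535-157204654). Capitals mark E2F words.
Cdkn2a, downstream start: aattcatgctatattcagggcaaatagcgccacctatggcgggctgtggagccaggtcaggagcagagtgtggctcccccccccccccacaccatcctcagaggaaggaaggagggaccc
Cdkn2a, upstream start: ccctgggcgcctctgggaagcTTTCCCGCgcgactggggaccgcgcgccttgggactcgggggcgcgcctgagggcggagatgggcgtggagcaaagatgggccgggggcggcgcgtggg
Rbl1: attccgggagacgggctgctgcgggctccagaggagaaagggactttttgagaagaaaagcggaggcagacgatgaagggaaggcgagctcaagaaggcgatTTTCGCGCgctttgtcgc
Promoter windows of RefSeq, from 250 bases before to 50 after a start, were found for 8 members, with 11 starts. E2F words were TTTGGCGC, TTTGCCGC, TTTCGCGC and TTTCCCGC on both strands. They occurred in 2 of the 11 member windows, the upstream Cdkn2a start and Rbl1, and in 2.26% of 32851 windows of all genes. The GC box GGGCGG on both strands occurred in 9 of 11 member windows and in 35.7% of all windows, and TATAAA in 0 of 11 and 13.6%. The CHR words TTTGAA and TTCGAA occurred in 2 of 11 and 19.2%, and CCAAT in 4 of 11 and 37.4%, both near the share of all windows. No E2F word overlapped a GC box. A match is a description of these letters, not of a bound site.

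Cdkn2b encodes p15 INK4b, which TGF-beta signalling induces in many cells. Its probe (ILMN_1227240) read 108, 120 and 145 in the pharyngeal and 117, 132 and 99.7 in the limb pools, above background on all 6 arrays but near it. The ranges of both groups overlapped for most of their width. The log2 means of 5.40 ± 0.72 and 5.36 ± 0.57 (SD, n = 3) gave a difference of 0.035 (SE 0.43, adjusted p = 0.979). The interval of -0.96 to 1.03 is the widest of the 9 members.

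Cdkn2c encodes p18 INK4c, an inhibitor induced in differentiating muscle cells. Its tested probe (ILMN_1228366) read 130, 103 and 117 in the pharyngeal and 119, 130 and 131 in the limb pools. In these unnormalized values pharyngeal pool 1 lay within the limb range. After background correction and normalization every pharyngeal value was below every limb value, with log2 means of 5.17 ± 0.39 and 5.77 ± 0.11 (SD, n = 3). The difference was -0.61 or 1.52-fold lower in pharyngeal pools (SE 0.24, interval -1.17 to -0.045, adjusted p = 0.217), and -0.22 without background correction. Both other probes, above background on 3 and 3 of 6 arrays, gave -0.22 and -0.53 with overlapping groups.

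Cdkn2d encodes p19 INK4d. Its probe (ILMN_1225214) read 797, 528 and 533 in the pharyngeal and 436, 765 and 615 in the limb pools, well above background everywhere. The groups overlapped, and in these unnormalized values pharyngeal pool 1 was the highest and limb pool 1 the lowest. The difference was -0.11 (SE 0.26, interval -0.71 to 0.49, adjusted p = 0.849), and its sign turned with median scaling (0.0031).

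**Figure D2:**
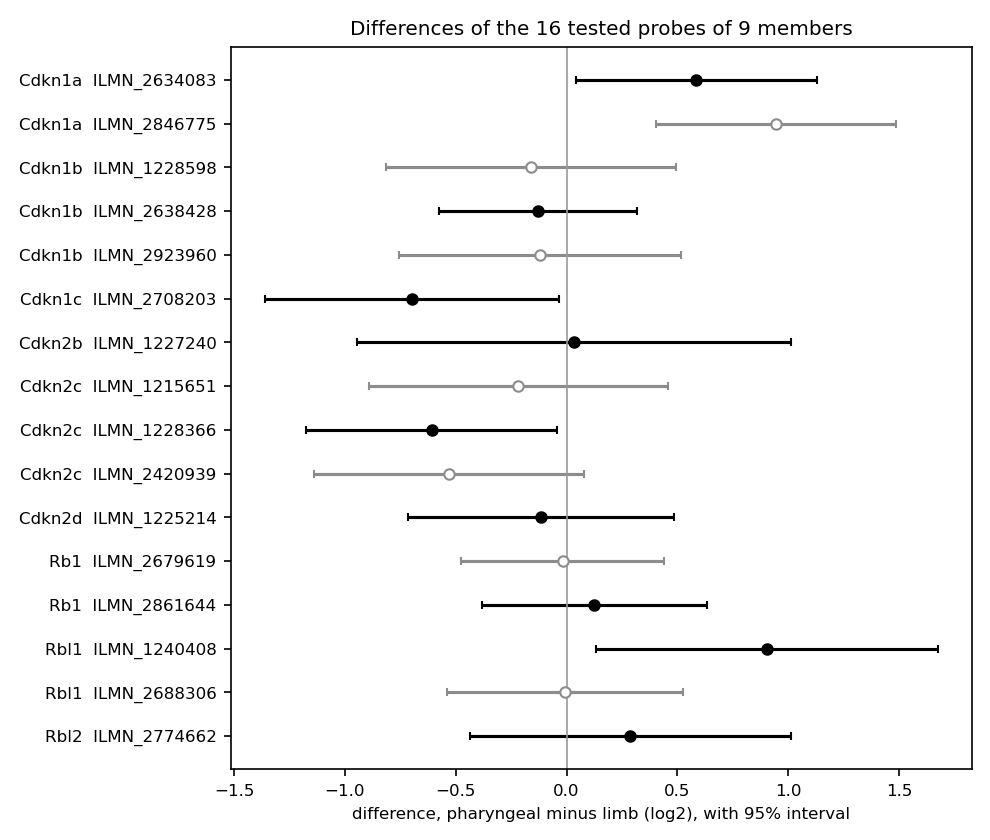
Difference, pharyngeal minus limb on the log2 scale, of each of the 16 tested probes with its 95% interval from limma over all 22633 probes; filled points are the probes that stand for their gene, open points the gene's other probes. Both Cdkn1a probes lie to the right of 0 and all 3 Cdkn2c probes to the left, and the 2 Rbl1 probes differ (0.90 and -0.0072).

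Among the pocket proteins, Rb1 was close to equal in both groups. Rb1 encodes pRb, which keeps myotubes out of the cell cycle. Its tested probe (ILMN_2861644) read 437, 366 and 385 in the pharyngeal and 256, 390 and 356 in the limb pools, with overlap and 1 low limb value in pool 1. The difference was 0.12 (SE 0.22, interval -0.38 to 0.63, adjusted p = 0.798), and the second probe gave -0.018.

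Rbl1 encodes p107, which rises with E2F activity in cycling cells. Its tested probe (ILMN_1240408) read 160, 117 and 127 in the pharyngeal and 111, 95.2 and 95.4 in the limb pools. It was above background on all 3 pharyngeal arrays and, among limb arrays, on that of pool 1. On the log2 scale limb pool 1 overlapped the pharyngeal range, with means of 5.67 ± 0.43 and 4.77 ± 0.53 (SD, n = 3). The difference was 0.90 (SE 0.33, interval 0.12 to 1.68, adjusted p = 0.192), with the limb level mostly a background level. It was 0.31 without background correction, when Cdkn1a (0.50) and Cdkn1c (-0.57) differed more. This probe is annotated to a cDNA clone. The probe annotated to the RefSeq transcript (ILMN_2688306) was above background on 2 arrays of each group and gave -0.0072, so the Rbl1 probes disagree. Averaged over both probes the difference was 0.45 (adjusted p = 0.366).

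Rbl2 encodes p130, the pocket protein that dominates in resting cells and forms the DREAM repressor complex. Its tested probe (ILMN_2774662) read 120, 129 and 121 in the pharyngeal and 97.3, 107 and 126 in the limb pools. Limb pool 3 overlapped the pharyngeal range. The difference was 0.29 (SE 0.31, interval -0.44 to 1.02, adjusted p = 0.662). The second probe (ILMN_3009354) was above background in limb pools 1 and 2 and in no pharyngeal pool, and was not tested.

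**Figure D3:**
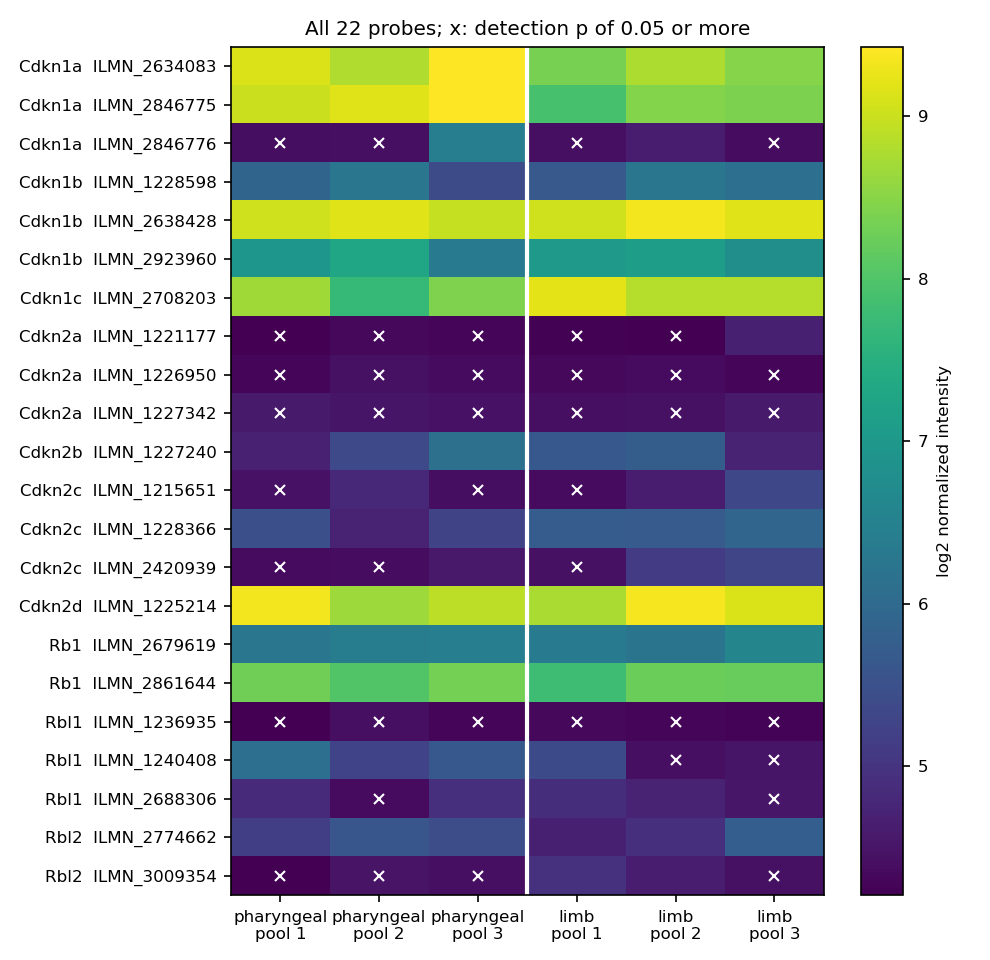
Log2 normalized intensity of all 22 probes (rows) on the 6 arrays (columns); crosses mark values with a detection p of 0.05 or more, and colours are to be read along a row. Of the probes, 12 were above background on all 6 arrays and 3 on none, 2 of these being probes of Cdkn2a and 1 of Rbl1.

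Patterns across arrays were described for the 3 members with the largest differences by the gene with the highest Pearson correlation of log2 values over the 6 arrays. These were Srfbp1 for Rbl1 (r = 0.991), Cul7 for Cdkn1c (r = 0.995) and 2300009A05Rik for Cdkn2c (r = 0.996). Over 6 arrays such values are common, with 29, 39 and 86 genes above 0.95 for the 3 members in this order, and the arrays share the group difference.

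The genes around the members in the pathway were read from fixed lists. Beside the genes named by rule, others are given for their roles and were chosen after their values were seen. These are Cdk4, Ccnd1, Pcna, the Mcm genes, Ezh2, Lin37, Lin52, Lin54, Rbbp4, Perp, Mdm2, Plk2 and Trp53inp1. Myod1, Bmi1, Cbx7, Ring1, Rnf2 and Skp2 were chosen in the same way. The list of G1 cyclins and their kinases also holds Ccna2, Cdc25a, Ccnh, Cdk7 and Mnat1. Of its 11 tested genes none passed, and their median difference was -0.32, against -0.056 for all genes. Cyclin D3 (Ccnd3), a partner of CDK4 and CDK6, read 9.23, 9.29 and 9.24 in the pharyngeal and 9.91, 10.03 and 10.06 in the limb pools on the log2 scale. The groups did not overlap (difference -0.75, SE 0.17, adjusted p = 0.0680). Ccnd3 passed in 5 of 12 processing settings, and the mean of its probes gave -0.41 (adjusted p = 0.311). Cyclin D2 (Ccnd2) ran the other way, with 8.28, 8.89 and 8.56 against 8.01, 7.90 and 7.77 (difference 0.69, adjusted p = 0.144). Cdk4, the kinase that INK4 proteins bind, differed by -1.13 (SE 0.44, adjusted p = 0.212), and Ccnd1 by -0.34.

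Of 8 tested E2F and DP factors none passed (median -0.41). The lowest were E2f2, an activating E2F (-1.48, SE 0.55, adjusted p = 0.196), and Tfdp2, a DP partner (-1.09, SE 0.34, adjusted p = 0.142). The value of Tfdp2 was 0.29 without limb pool 1, when another probe was its brightest. The DREAM list holds Foxm1 and Dyrk1a beside subunits of the complex. Of its 6 tested genes none passed (median 0.12). Foxm1 was at 0.79 (adjusted p = 0.283) and Dyrk1a, the kinase that assembles the complex, at 0.29 (adjusted p = 0.464). The subunits Lin37, Lin52, Lin54 and Rbbp4 were at -0.035, -0.24, 0.20 and 0.030.

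Of 16 E2F target genes 1 rose and none fell (median 0.12). It was Rrm1, the large subunit of ribonucleotide reductase, with log2 values of 8.11, 8.39 and 8.41 in the pharyngeal and 7.06, 7.16 and 7.16 in the limb pools (difference 1.18, SE 0.19, adjusted p = 0.0193). It did not pass with any 1 limb pool left out (highest adjusted p = 0.117) or as the mean of its probes (0.119). Pcna and Mcm2 to Mcm7 lay between -0.23 and 0.20. Of 9 tested mitosis genes 2 rose, Cenpa (1.78, adjusted p = 0.0217) and Cdc20 (1.83, adjusted p = 0.0329), each with fits without 1 pool in which it did not pass (highest adjusted p = 0.105 and 0.154). Cenpa passed in 10 of 12 processing settings and Cdc20 in 7, with Cdc20 at 1.03 as the mean of its probes (adjusted p = 0.125) and at 0.84 without background correction (0.0566).

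Of 16 p53 pathway targets other than Cdkn1a none passed (median 0.14), and they spread to both sides. Perp, which is also a desmosome gene of epithelia, Mdm2, the p53 ubiquitin ligase, and Plk2 had differences of 1.15, 0.46 and 0.41, with groups that did not overlap and adjusted p of 0.183, 0.241 and 0.255. Sesn1 (-1.38, SE 0.31, adjusted p = 0.0598), Btg2 (-0.74, SE 0.18, adjusted p = 0.0795) and Trp53inp1 (-0.62, adjusted p = 0.155) lay on the other side, also without overlap. The other 10 targets overlapped between groups, so 6 of 16 did not, where 26.7% of all genes did not.

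Of 18 tested regulators of inhibitor transcription 1 fell and none rose (median -0.23). It was the Notch target Hey1, with log2 values of 7.80, 8.65 and 7.87 in the pharyngeal and 9.35, 9.38 and 9.42 in the limb pools (difference -1.27, SE 0.26, adjusted p = 0.0491). Leaving out pharyngeal pool 2 gave an adjusted p = 0.0175, and leaving out any other pool gave one above the threshold, up to 0.195. Myod1, which induces Cdkn1a in mouse myoblasts, was -0.38 (adjusted p = 0.296). The Polycomb genes Bmi1, Cbx7 and Ring1, which repress Cdkn2a, were -0.38, -0.34 and -0.97. Of other listed Polycomb genes, Rnf2 was -0.22, and Ezh2, read among the E2F targets, went the other way (0.12). None of these was past the threshold. Of 10 tested genes listed for the turnover of p27 and p21 none passed (median -0.22), with Ubac1 at -0.70 (adjusted p = 0.284) and Rbx1 at -0.56 (adjusted p = 0.299). Skp2, the F-box protein that recognises p27, had no pharyngeal array above background and could not be tested.

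**Figure D4:**
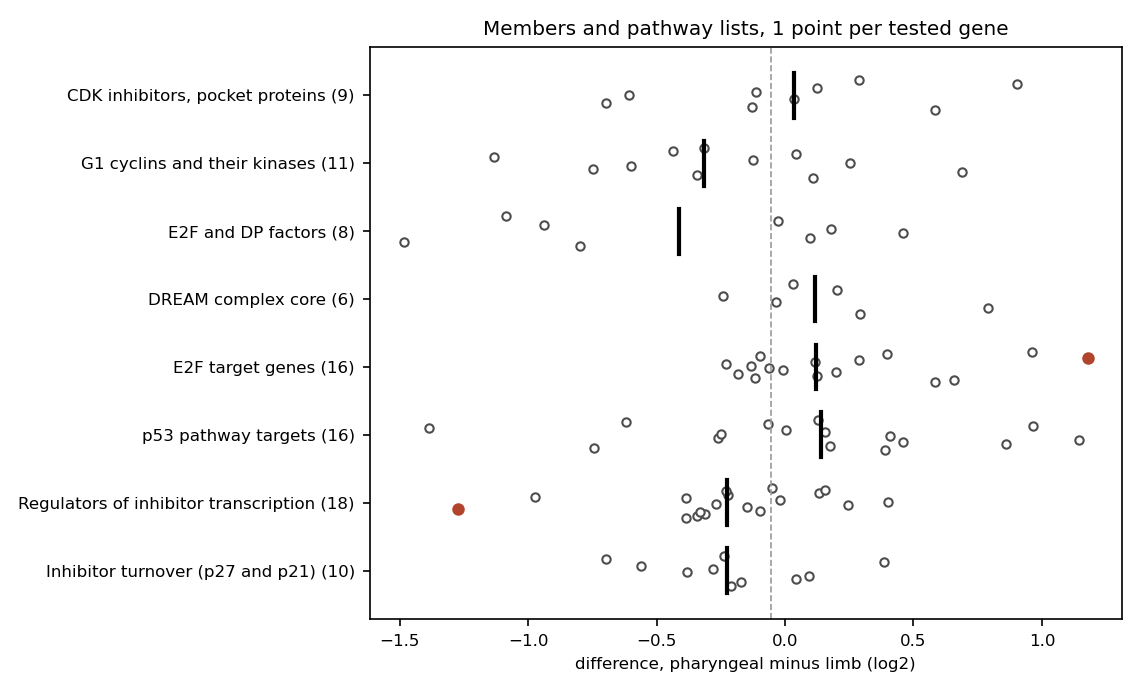
Difference, pharyngeal minus limb on the log2 scale, of each tested member and each tested gene of the pathway lists; numbers in brackets count tested genes, black bars are medians, the dashed line is the median of all genes (-0.056), and filled points passed the threshold. The filled points are Rrm1 among the E2F targets and Hey1 among the transcription regulators.

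Across other ways of processing, the 9 members kept differences below the threshold in every setting run. Cdkn1a stayed between 0.44 and 0.77, Cdkn1c between -0.91 and -0.43, and Cdkn2c between -0.75 and -0.22. Rbl1 ranged from 0.31 to 1.23 and Rbl2 from 0.065 to 0.62. The members near 0, Cdkn2b, Cdkn2d and Rb1, changed sign with the pool that was left out.

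**Figure D5:**
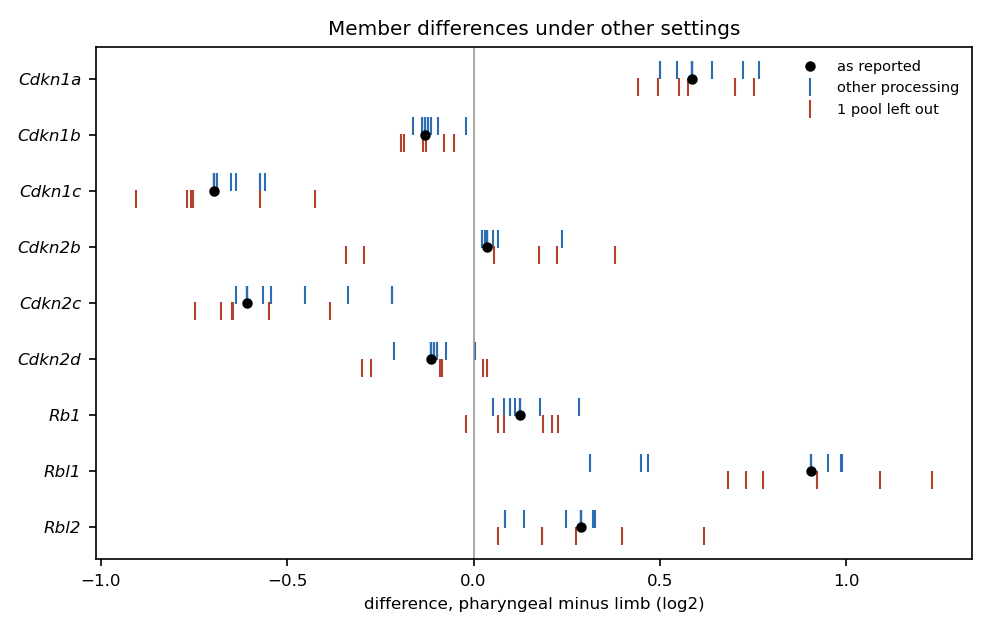
Difference, pharyngeal minus limb on the log2 scale, of each tested member as reported (black), under the other processing settings (blue) and with 1 pool left out (red). Cdkn1a and Rbl1 stay right of 0 and Cdkn1c and Cdkn2c left of it, and Cdkn2b, Cdkn2d and Rb1 cross 0.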

How the data were processed

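For each array the authors deposited linear intensity values before normalization, each beside its detection p-value (steps of 1 in 936), and a table of processed intensity values. The submitters' processing notes name GenomeStudio 2011.1. Background correction is stated in the design text, yet no array's dimmest probe lay under 76.1 (76.1 to 82.1), so background was modelled here. The processed columns had medians of 99.5 to 99.6 and ranked the probes of an array as the other table did (Spearman 1). Intensities went through the normexp model with background read from detection p-values (offset 16), quantile normalization and log2, in limma 3.58.1 (R 4.3.3). The offset understates folds of dim probes. A probe was kept when 3 or more of the 6 arrays had a detection p under 0.05 (20919 to 22793 probes passed per array), and the brightest kept probe stood for a gene. Groups were compared with lmFit and eBayes (2-sided), Benjamini-Hochberg over all genes or probes, threshold 0.05. Lists are described by counts and medians. The fit was run on simulated data with the same spread per gene in both groups, so that run does not cover an unequal spread. The number of arrays limits the precision. A p-value sets the group difference against the spread between pools of a group, with 1 variance per gene for both groups. The pharyngeal pools were less alike (correlations of 0.886 to 0.915) than the limb pools (0.959 to 0.968).

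Members and gene lists were chosen with earlier results of these data known. Named genes were all member probes, and per list up to 4 genes past the threshold or else up to 2, by smallest adjusted p. The likeness of patterns covered the 3 members with the largest differences. Symbols come from the platform annotation; 10378 probes are unnamed here. A bound (at least N-fold) sets the bright group's mean against the dim group's lowest level above background. No probe used here is named for Trp53, Smad4, Bax, Gdf15, Skp1a, Mki67, Ccnb1, Dsp, Ly6a or Cd68, and 11 of the member promoter windows were matched by symbol to RefSeq.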

Additional observations from a re-analysis of the deposited data

How the results depend on the processing

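No member passed in any of 18 alternatives (12 processing settings and 6 fits without 1 pool; Rbl1 could not be tested with probes above background on all 6 arrays). Of the member probes 1, ILMN_2846775 of Cdkn1a, passed without background correction, with the processed table and with a variance trend and robust fitting together, against 0 as reported. The number of genes that passed was 374 as reported, 568 with the trend and robust fitting and 139 with the replicate number as a block, and 58 to 360 without 1 pool (80, 62 and 58 without limb pools 1, 2 and 3). With the block no member passed either. Whether the numbers pair the pools was not settled. Same-numbered pools' deviations correlated at -0.010, -0.013 and 0.00023, and not every pool correlated best with its own number. With 3 pools per group these values cannot exclude a pairing. With median scaling 63.2% of the calls were higher in pharyngeal pools, against 51.6%, and 43.6%, 44.6% and 41.1% without pharyngeal pools 1, 2 and 3. Directions turned for members near 0: Cdkn2d was 0.0031 with median scaling and -0.30 to 0.037 without 1 pool, Cdkn2b -0.34 to 0.38 and Rb1 -0.021 to 0.23. Tfdp2 ranged from -1.34 to 0.29, through another probe, and Tyrobp from -0.014 to 0.82. Precision is limited by 3 arrays per group and, for Cdkn2b, Cdkn2c, Rbl1 and Rbl2, by signals near background.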
